A study of Arabidopsis thaliana with 6 samples.

Results

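The light-harvesting complex genes considered here were a list of 10 Arabidopsis loci, 6 for antenna proteins of photosystem II (LHCB3, LHCB4.1, LHCB4.2, LHCB4.3, LHCB5 and LHCB6) and 4 for those of photosystem I (LHCA1 to LHCA4). A locus was a member when the platform annotation of the ATH1 array assigned a probe set to it, by gene symbol or by an Entrez identifier converted to its locus. This held for 3 of the 10: LHCB4.3 (AT2G40100, probe set 265722_at), LHCB4.1 (AT5G01530, probe set 251082_at) and LHCB4.2 (AT3G08940, probe set 258993_at), out of 22746 probe sets tested. All of them encode CP29, a photosystem II antenna protein, so the members did not cover photosystem I. The probe set of a further listed gene, LHCA4 (AT3G47470, probe set 252430_at), was named only through a supplementary table of the study and is described beside them without being counted as a member. The remaining 6 loci were not assigned to a probe set in the tables used and were not analysed here.

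Antenna proteins bind chlorophyll and carotenoids in the thylakoid membrane and pass the energy of absorbed light to the reaction centres. They are encoded in the nucleus and imported into the chloroplast, and their transcripts are among the most abundant in green tissue. They are known to respond to light and to sugar and to follow the circadian clock. CP29 is a monomeric antenna protein that sits between the photosystem II core and the trimeric antenna. In Arabidopsis it is encoded by LHCB4.1 and LHCB4.2, which are close relatives, and by the more divergent LHCB4.3, which is known for its response to strong light.

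Total RNA came from the aerial part of 11-day-old Columbia seedlings, with 3 arrays of the eif3k mutant and 3 of wild-type. In the mutant a T-DNA interrupts At4g33250, which encodes the k subunit of the initiation factor eIF3, within intron 6, and all mutant samples come from this single insertion line. According to the study's methods it makes a transcript that lacks the 3′ end and shows no obvious phenotype as a seedling or adult. Plants of both genotypes were raised at 22 °C on agar with 1% sucrose and harvested 4 h after lights on. The labels give a 16 h day whereas the study's methods give continuous light for the mutant, a difference that the sources used here do not settle and that concerns light-regulated genes directly. In both genotypes replicates 1 and 2 were run on a first array date and replicate 3 on a later one.

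The signals are log2 values made by GCRMA, between 2.25, the floor at which dim probe sets collect, and 15.55. They allow a probe set to be compared between arrays, but not the amounts of transcript of different genes with each other. The probe set of eIF3k, the mutated gene, had log2 signals of 6.81, 6.62 and 7.52 in eif3k and of 8.82, 9.18 and 8.89 in wild-type, so that every mutant array lay below every wild-type array, as for 2.31% of all probe sets. That probe set was named only through the supplementary table of the study. The array of eif3k replicate 3 stood apart in the control probe set for 25S rRNA, at 8.13, where the other 5 arrays had between 12.04 and 12.87. The difference between the 3′ and 5′ control probe sets of ubiquitin, which rises when RNA is less complete, was 2.23 in eif3k replicate 3 and 2.24 in wild-type replicate 3, and lay between 1.64 and 1.74 on the first date. That of GAPDH was 3.92 in eif3k replicate 3 and 5.02 in wild-type replicate 3, and lay between 4.09 and 4.18 on the first date. For actin it was 7.29 in eif3k replicate 3 and 7.11 in wild-type replicate 3, against 6.93 to 7.24 on the first date. Only the ubiquitin control was thus higher in both replicate 3 arrays than on the first date. The part of these properties in the results for the antenna genes was not tested.

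The first question was whether the CP29 transcripts differed between eif3k and wild-type. Of the 3 members, LHCB4.3 had the largest difference, with higher signal in the mutant on every array, although it did not pass the test. It had log2 signals of 8.36, 8.28 and 9.08 in eif3k replicates 1 to 3 and of 7.32, 7.79 and 7.78 in wild-type replicates 1 to 3. The genotypes did not overlap, and the highest value belonged to eif3k replicate 3, the array with the low 25S rRNA signal. LHCB4.3 averaged 8.57 ± 0.44 in eif3k and 7.63 ± 0.27 in wild-type (SD, n = 3 each). The log2 difference of 0.94, with a standard error of 0.28 and a 95% interval from 0.18 to 1.71, corresponds to a 1.92-fold higher signal in the mutant. It was above 0 in all 3 same-numbered pairs, with log2 differences of 1.04, 0.49 and 1.30, which 8.23% of all probe sets also were.

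For this difference the limma unadjusted p was 0.0257 and the adjusted p over all probe sets was 1.0, where a call required both 0.05 as the upper limit of the adjusted p and a 2-fold difference or more. No probe set on the array was called by limma (0 of 22746, or 0%), while 694 (3.05%) had an unadjusted p under 0.05. The mutated gene eIF3k was thus not called either, at a log2 difference of -1.98 (limma adjusted p = 0.864). The exact permutation test of the LHCB4.3 signals gave a 2-sided p of 0.1, the smallest that 3 against 3 arrays allow. LHCB4.3 was listed with earlier results of these data known, so neither unadjusted p-value is that of a gene chosen beforehand. Of all probe sets, 2.71% had non-overlapping genotypes with eif3k higher, and 0.655% (149) had a log2 difference at least as large as that of LHCB4.3. Both conditions were met by 68 probe sets, or 0.299%. These shares, like that of the same-numbered pairs, count dim probe sets too. Depending on the array, 25.5% to 26.8% had the lowest signal, and a probe set that stays there on every array shows no difference. LHCB4.3 was brighter, with 11.2% of probe sets above its mean signal. Among probe sets as bright as LHCB4.3 the shares may be higher, which was not tested. Without eif3k replicate 3 the log2 difference of LHCB4.3 was 0.69, and with the first array date alone it was 0.76.

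LHCB4.1 had nearly the same signal in both genotypes. Its log2 signals were 14.12, 14.07 and 13.98 in eif3k and 14.15, 14.14 and 13.90 in wild-type, and the genotypes overlapped. The genotypes differed by -0.01 on the log2 scale (SE 0.087), and the 95% interval ran from -0.24 to 0.23, or from 0.846 to 1.17 as a ratio of signals. A change of 2-fold in signal in either direction lies outside this interval. LHCB4.1 varied little, with SDs of 0.071 for eif3k and 0.14 for wild-type (n = 3 each), where the median SD of probe sets above the median signal was 0.235 and 0.202 in the same genotypes. Only 0.0835% of probe sets had a higher mean signal than LHCB4.1, and 0.171% than LHCB4.2. Whether differences in transcript are compressed at such signals was not tested, which also limits the contrast of LHCB4.3 with both.

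LHCB4.2 overlapped between the genotypes as well. It had log2 signals of 13.80, 13.73 and 13.50 in eif3k and of 13.79, 13.79 and 12.80 in wild-type, where replicate 3, the array with the widest gap between the GAPDH controls, was 0.99 log2 units below the other wild-type arrays. LHCB4.2 averaged 13.68 ± 0.16 in eif3k and 13.46 ± 0.57 in wild-type (SD, n = 3 each). The genotypes differed by 0.22 on the log2 scale (SE 0.33), with a 95% interval from -0.66 to 1.09, which includes a 2-fold higher signal in eif3k. The limma adjusted p was 1.0 for LHCB4.1 and for LHCB4.2. The sign of the LHCB4.2 difference rested on wild-type replicate 3, without which the value was -0.11.

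LHCA4, a subunit of the photosystem I antenna, had log2 signals of 14.59, 14.51 and 13.85 in eif3k and of 14.68, 14.57 and 13.91 in wild-type. Replicate 3 was the lowest array in each genotype, and the genotypes overlapped. The genotypes differed by -0.07 on the log2 scale (SE 0.32), with a 95% interval from -0.93 to 0.79 (limma adjusted p = 1.0). The same-numbered pairs differed by -0.09, -0.06 and -0.06, less than the spread within each genotype. The supplementary table that named this probe set lists genes affected in other translation mutants, so LHCA4 was not drawn at random from the antenna genes.

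**Figure D1:**
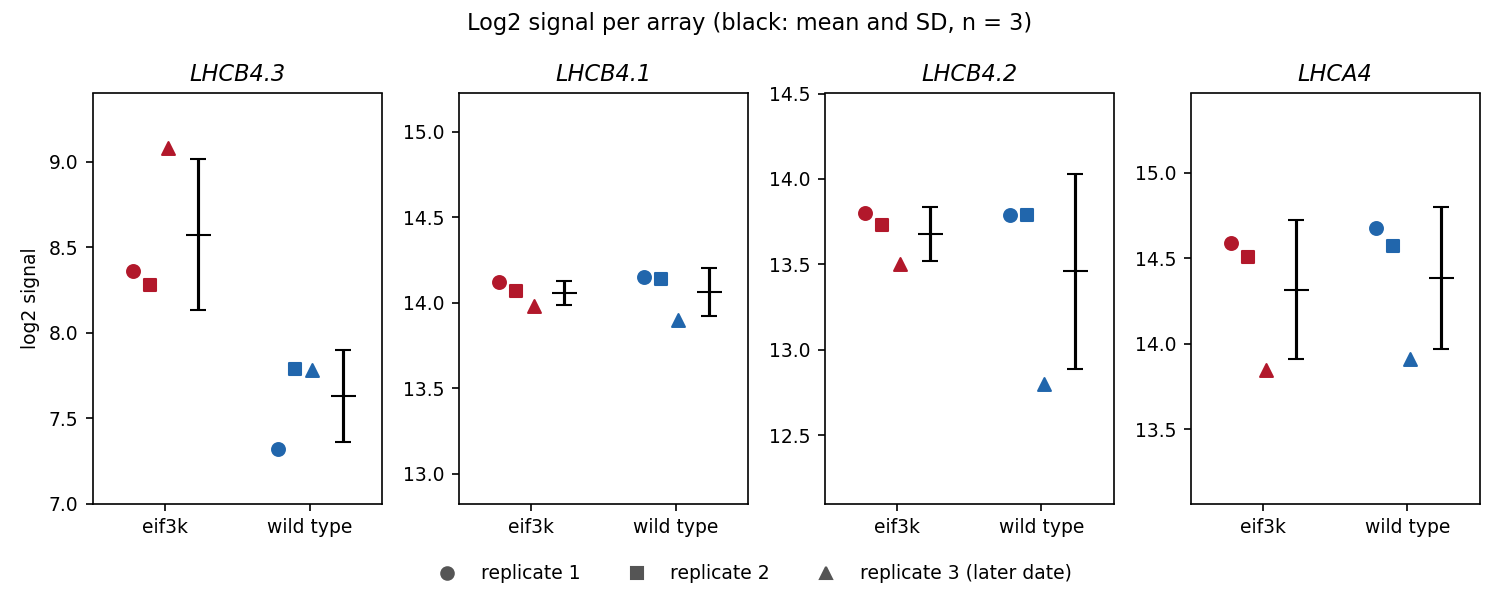
Log2 signal of the CP29 genes LHCB4.3, LHCB4.1 and LHCB4.2 and of LHCA4 on each array, with eif3k in red and wild-type in blue, the replicate number as marker shape, and the mean and SD (n = 3) in black. Each vertical axis spans the same range of log2 units. Only for LHCB4.3 do the genotypes not overlap, with eif3k from 8.28 to 9.08 and wild-type from 7.32 to 7.79. The same holds, with eif3k higher, for 2.71% of all probe sets, and LHCB4.3 did not pass the limma test.

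**Figure D2:**
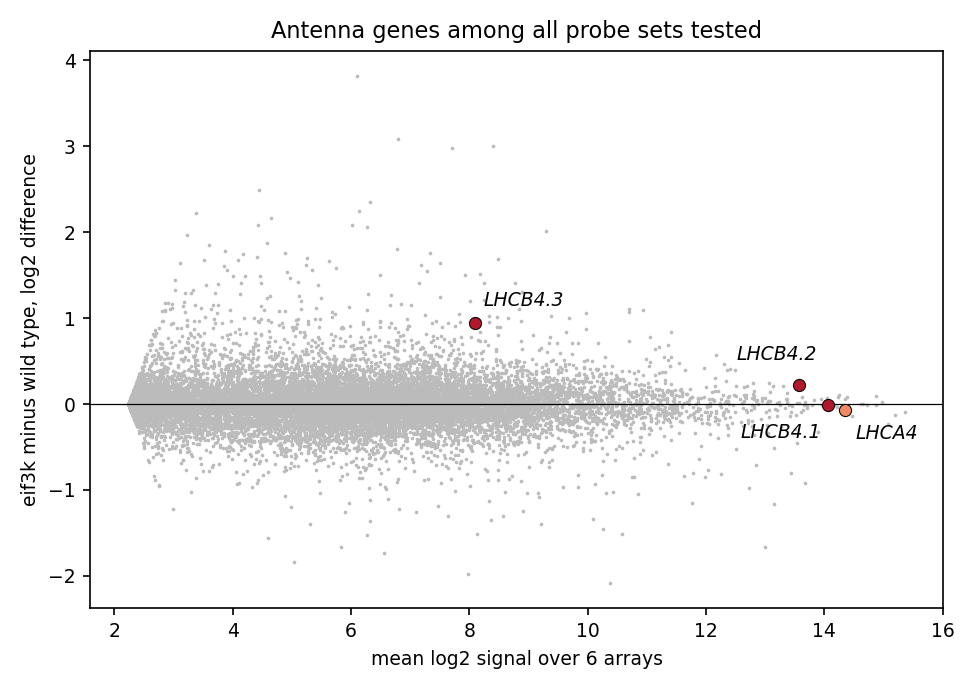
Log2 difference between eif3k and wild-type against the mean log2 signal over 6 arrays for all 22746 probe sets (grey), with the CP29 genes in red and LHCA4 in orange. LHCB4.3 lies at 0.94 and has 149 probe sets at or above it, itself included, while LHCB4.1, LHCB4.2 and LHCA4 lie near 0 at the bright end of the array.

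The second question was whether LHCB4.3 differed between the genotypes by another amount than its paralogues. LHCB4.3 and the other members had been chosen with earlier results of these data known. For each array the mean log2 signal of LHCB4.1 and LHCB4.2 was subtracted from that of LHCB4.3. This contrast was -5.60, -5.62 and -4.66 in eif3k and -6.65, -6.18 and -5.57 in wild-type. The genotypes overlapped, because wild-type replicate 3, in which LHCB4.2 was low, lay above eif3k replicates 1 and 2. The mean contrast was -5.29 ± 0.55 in eif3k and -6.13 ± 0.54 in wild-type (SD, n = 3 each), a difference of 0.84 with a standard error of 0.45. The 2-sided exact permutation test over 20 splits gave p = 0.3, so that a separate behaviour of LHCB4.3 was not shown. The contrast was higher in eif3k in all 3 same-numbered pairs, by 1.05, 0.55 and 0.91 log2 units. Against LHCB4.1 alone the difference was 0.95 with an exact p of 0.1, the smallest possible, and against LHCB4.2 alone it was 0.73 with an exact p of 0.3.

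The members also differed in how they varied together. Over the 6 arrays LHCB4.1 and LHCB4.2 had a Pearson correlation of 0.922, and LHCA4 had 0.937 with LHCB4.1 and 0.792 with LHCB4.2. LHCB4.3 had -0.342 with LHCB4.1, 0.022 with LHCB4.2 and -0.516 with LHCA4. These values describe 6 arrays that share array dates and genotypes. The high values among LHCB4.1, LHCB4.2 and LHCA4 went with the low signals of all of them on the arrays of replicate 3.

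The third question was how the antenna transcripts differed between the array dates. In a limma model with genotype and date, 76 of 22746 probe sets (0.334%) were called, and no CP29 gene was among them. This model takes the later arrays of both genotypes as independent, and with same-numbered arrays averaged as a replicate block, which leaves 3 values, 0 probe sets were called. LHCA4 had a log2 difference of -0.71 with a standard error of 0.045 between the later and the first date (limma adjusted p = 0.0462), with -0.70 in eif3k and -0.71 in wild-type. This is 1.63-fold lower on the later date and so short of the 2-fold criterion, and the adjusted p was between 0.102 and 0.171 when any single array was left out and 0.214 with the replicate block, at log2 differences between -0.68 and -0.73. Without the fold criterion, 0.286% of probe sets passed with lower signal on the later date. LHCB4.1 had a log2 date difference of -0.18 with a standard error of 0.039 (limma adjusted p = 0.201), which was -0.11 without wild-type replicate 3. LHCB4.2 had -0.63 with a standard error of 0.20 (limma adjusted p = 0.318). Without eif3k replicate 3 the LHCB4.2 value was -0.99, still short of 2-fold, and without wild-type replicate 3 it was -0.27. These are the date differences within wild-type alone and within eif3k alone. A fit without either replicate 3 array leaves a single array on the later date, so it holds no spread between later arrays.

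LHCB4.3 had the opposite sign, with a log2 date difference of 0.49 and a standard error of 0.21 (limma adjusted p = 0.462). Within the genotypes it was 0.76 in eif3k and 0.23 in wild-type. LHCB4.2 differed more by date in wild-type, with -0.27 in eif3k and -0.99 in wild-type. The interaction of genotype with date, in which the single later array of each genotype is assumed to vary like the first-date arrays, was 0.72 for LHCB4.2 with a standard error of 0.056. Its limma adjusted p was 0.0688, while 3.67% of all probe sets had an interaction with an adjusted p under 0.05. When fitted to the differences within same-numbered pairs, the limma adjusted p of LHCB4.2 was 0.278, and 0 probe sets on the array passed. The interaction was 0.53 for LHCB4.3 (limma adjusted p = 0.858) and 0.13 for LHCB4.1 (limma adjusted p = 0.43).

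**Figure D3:**
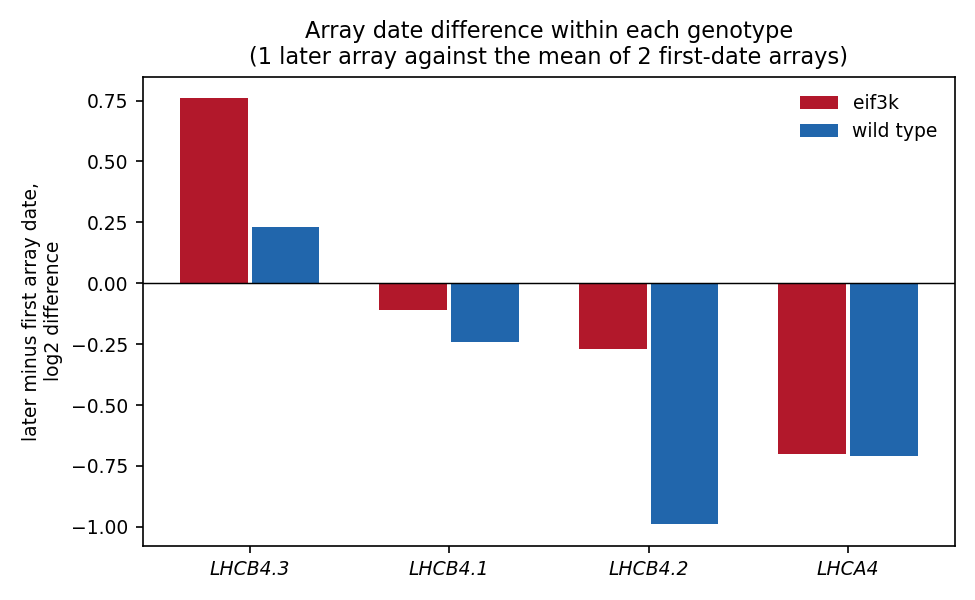
Log2 difference between the later array date (1 array) and the mean of the first-date arrays within eif3k (red) and wild-type (blue), with no error because a single array of each genotype was run on the later date. LHCB4.3 was higher on the later date in both genotypes, LHCB4.1, LHCB4.2 and LHCA4 were lower, and the bars of LHCB4.2 differ most, at -0.27 in eif3k and -0.99 in wild-type.

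Other genes of the photosynthetic apparatus were read from lists of known function, few of whose loci had a named probe set. Of 12 nuclear genes for subunits of the photosystem I core, 4 were matched (2 of them through the supplementary table), with a median log2 difference of 0.03 between eif3k and wild-type, and 0 were called in either direction, as was the case for all probe sets on the array (0%). PSAE-2 had -0.11 and PSAG, a subunit at the contact with the photosystem I antenna, had 0.06. Of 12 genes for subunits of photosystem II, 3 were matched, with a median of 0.03 and again 0 called. PSBY had 0.14 and PSBW, known for a role in stabilising photosystem II supercomplexes, had -0.09. Of 14 genes of chlorophyll synthesis, 3 were matched, with a median of 0.19 and 0 called. CHLM, a methyltransferase of the magnesium branch, had -0.08, CHLI2, a subunit of magnesium chelatase, had 0.19, and PORB, a protochlorophyllide oxidoreductase, had 0.32 with a standard error of 0.53. The median over all probe sets tested was 0.00.

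Genes that report light and time of day were matched for 2 and 3 of 4 listed loci. ELIP2, an early light-induced protein, had log2 signals of 7.63, 9.12 and 5.86 in eif3k and of 8.16, 9.84 and 5.86 in wild-type. It was lowest on the later date in both genotypes, and its log2 genotype difference was -0.42 with a standard error of 1.42. TT4, the chalcone synthase gene, which is also induced by strong light, had 9.05, 9.14 and 9.97 in eif3k and 7.71, 8.73 and 8.39 in wild-type. Like LHCB4.3 and 2.71% of all probe sets, it did not overlap between the genotypes with eif3k higher, and it had a log2 difference of 1.11 with a standard error of 0.40 (limma adjusted p = 1.0). The interval of the ELIP2 difference ran from -4.23 to 3.4 and so left its sign unsettled. Whether the 2 high light genes differed in direction was not tested. The morning clock gene CCA1 had 9.40, 9.78 and 8.84 in eif3k and 10.40, 10.40 and 8.69 in wild-type, a log2 difference of -0.49 with a standard error of 0.60. LHY, its close relative, had -0.19, and the evening gene GI had 0.19. Of these 5 genes, 4 were named only through the supplementary table of genes affected in other mutants; GI was named by the platform annotation.

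**Figure D4:**
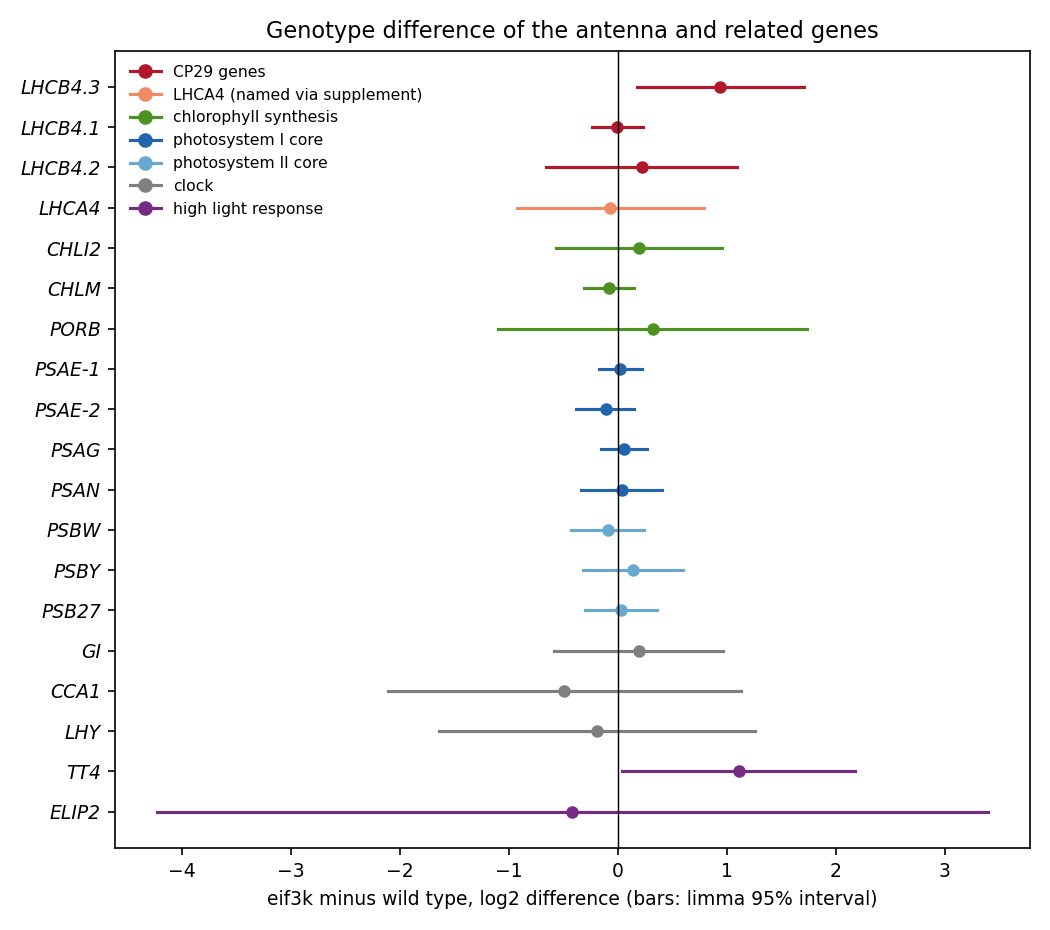
Log2 difference between eif3k and wild-type (points) with limma 95% intervals (bars) for the CP29 genes, LHCA4 and the matched genes of chlorophyll synthesis, the photosystem cores, the clock and the high light response. The intervals of LHCB4.3 (0.18 to 1.71) and TT4 (0.04 to 2.18) leave out 0, but both had a limma adjusted p of 1.0 over all probe sets.

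No probe set was matched for the other antenna genes listed (12 loci), the factors of antenna insertion and phosphorylation (7), the Rubisco small subunits (4) or the regulators of antenna genes (4). The leaf identity of the samples was therefore not checked by a separate marker. Of the markers of root and seed tissue, the root gene PYK10 was the single match of 6 loci, and the seed storage gene CRA1 that of 4. PYK10 had log2 signals of 10.87, 11.44 and 11.61 in eif3k and of 10.62, 10.40 and 11.42 in wild-type, far above the floor on every array. It was higher in eif3k in all 3 pairs, but the genotypes overlapped and the log2 difference of 0.49 had a standard error of 0.36. CRA1, named only through the supplementary table, had 2.86, 7.58 and 7.43 in eif3k and 2.62, 2.98 and 8.93 in wild-type. It was thus far above the floor in eif3k replicates 2 and 3 and in wild-type replicate 3. A single gene of each list does not show whether root or seed tissue was present. Whether either had a part in the LHCB4.3 signal was not tested. In RNA from whole shoots, fewer cells of a type and less RNA per cell cannot be told apart.

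Among 6342 probe sets with a single named gene and a mean signal above the median, the 5 whose log2 signals over the 6 arrays were most like those of LHCB4.3 were SDH2-2, an iron-sulphur subunit of succinate dehydrogenase (r = 0.997), AT2G05920 (0.996), AT2G20790 (0.996), the subtilase gene SBT3.5 (0.992) and AT4G02860 (0.990). Their log2 genotype differences lay between 0.30 and 0.54. The positive sign follows from the choice by correlation with LHCB4.3, in which the genotypes do not overlap. SDH2-2 had log2 signals of 7.32, 7.29 and 7.65 in eif3k and of 6.74, 7.01 and 6.98 in wild-type, which repeats the order of arrays seen in LHCB4.3 with a smaller range. None of these 5 is an antenna gene of the list. The 5 most like the mean of LHCB4.1 and LHCB4.2 were AT1G44760 (r = 0.994), AT5G19940 (0.981), AT5G58330 (0.980), AT5G64850 (0.979) and FZL (0.979), a gene for a dynamin-like protein of the chloroplast. FZL had log2 signals of 5.04, 5.08 and 4.73 in eif3k and of 5.12, 5.20 and 4.33 in wild-type, with the lowest value in wild-type replicate 3 as for LHCB4.2. These correlations were picked as the highest among many and have no test.

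Genes beside the members on the chromosome were looked up by gene order, a choice made after the signals were seen. AT2G40110, the protein-coding gene next to LHCB4.3 on one side, had log2 signals of 4.48, 4.35 and 4.62 in eif3k and of 4.32, 4.78 and 5.56 in wild-type, and its log2 difference of -0.40 had the opposite sign to that of LHCB4.3 (limma unadjusted p = 0.312). AT3G08930, next to LHCB4.2, had a log2 difference of 0.12 (limma unadjusted p = 0.332). The direct neighbours of LHCB4.1 were not assigned to a probe set in the tables used.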

How the data were processed

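Transcript levels were measured on Affymetrix ATH1 arrays, 3 of eif3k and 3 of wild-type. The deposited values are log2 signals per probe set. The submitters' processing notes name GCRMA, with no version given in the sources used here; its output and the range of values gave the log base. GCRMA corrects background by probe sequence and quantile-normalizes the arrays together, so a change of all transcripts at once would not be seen. The study's own analysis used Robust Multi-array Average. Scanner files were not used here.

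The table held 22810 probe sets, 64 of them Affymetrix controls, which were removed. The platform annotation gave 1 gene for 13513 probe sets and several for 503, and a supplementary table of the study named 499 more by locus. Symbols and gene order came from the RefSeq table (no coordinates used).

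The main test was limma (version 3.58.1, R 4.3.3; lmFit, eBayes, 2-sided) without a block. P-values were adjusted by Benjamini-Hochberg over 22746 probe sets. A probe set was called at an adjusted p under 0.05 with a difference of 2-fold or more. The prior of the fit had 0.388 degrees of freedom, so that spread was hardly shared between probe sets. The contrast between paralogues was tested by exact permutation. The limma step was tested on simulated data. Intervals are 95%. The number of arrays limits the precision. The labels call the replicates biological without naming separate cultures, so p-values measure the spread between these samples.

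The labels tie replicate 3 of both genotypes to a later array date, so the numbers were taken to pair arrays. Deviations from the group means correlated at 0.247, 0.378 and 0.542 between same-numbered arrays 1, 2 and 3. Unlike-numbered arrays of the first date correlated at 0.308 and 0.395, about as pairs 1 and 2 did, and arrays of different dates at -0.489 to -0.353. Deviations from a group mean cancel out over the arrays of a genotype. The positive values within the first date therefore fix the signs of those that involve replicate 3.

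The members and gene lists were chosen with earlier results of these data known. Named genes were every listed locus with a named probe set, the list members that passed or the 2 of smallest unadjusted p, the 5 probe sets most correlated with each profile, and eIF3k; further list members were named after their values were seen. Alternatives were blocks, a single date, centring or renormalizing the arrays, leaving out dim probe sets, other priors, array weights and omission of each array.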

Additional observations from a re-analysis of the deposited data

How the results depend on the processing

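The count of probe sets called between eif3k and wild-type was 0 in limma under all 15 alternatives, including a replicate block, where it was 0. The range without single arrays was 0 to 0. In some of these fits the fold criterion decided this. The smallest limma adjusted p was 0.017 without eif3k replicate 3 and 0.0379 without wild-type replicate 3, for probe sets short of a 2-fold difference. The LHCB4.3 log2 difference stayed above 0 under its 15 alternatives, from 0.69 (without eif3k replicate 3) to 1.09 (without eif3k replicate 2), and never passed (limma adjusted p from 0.682 to 1.0). With a replicate block it was 0.94 (limma adjusted p = 0.923).

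The contrast of LHCB4.3 with its paralogues stayed above 0 under 10 alternatives, from 0.52 without eif3k replicate 3 to 1.12 without wild-type replicate 3, and was 0.84 with a replicate block (exact sign flips, p = 0.25, the smallest that 3 pairs allow). The planned mean of the 9 other loci was not run. Only 2 of them, LHCB4.1 and LHCB4.2, had a probe set in the platform annotation, and the contrast with these is the one reported. LHCA4, named only through the supplementary table, was left out of it.

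The count for the array date was 76, against 470 with brighter probe sets only, 160 with median centring and 4 with a trend and robust prior. It ranged from 0 without wild-type replicate 1 to 200 without wild-type replicate 3; it was 1 without eif3k replicate 1 or eif3k replicate 2 and 8 without wild-type replicate 2. With same-numbered arrays averaged as a replicate block, a fit chosen after seeing the data, it was 0 (4248 at an unadjusted p under 0.05). The interaction count was 834, against 65 with median centring and 0 from differences within pairs, a replicate block also chosen after seeing the data (2675 at an unadjusted p under 0.05). Both block fits leave 1 residual degree of freedom. The LHCA4 date difference of -0.71 had a limma adjusted p of 0.283 at the same size with a trend and robust prior, 0.021 with median centring (-0.76) and 0.0228 with brighter probe sets only (-0.71). The causes were not tested.

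The genotype difference changed sign in LHCB4.1, whose values without single arrays ranged from -0.09 to 0.04 (0.03 or more without eif3k replicate 3 and without replicate 1 or 2 of wild-type). It changed sign in LHCB4.2 on the first date alone (-0.02) and ranged from -0.11 without wild-type replicate 3 to 0.38 without replicate 1 or 2 of wild-type. LHCA4 ranged from -0.31 without wild-type replicate 3 to 0.16 without eif3k replicate 3, and was also above 0 without replicate 1 (0.08) or replicate 2 (0.02) of wild-type. None of these had been called. The replicate block changed no call besides those given.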
